A study of Mus musculus with 12 samples.

Results

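The comparison described here is the retinal transcriptome of wild-type mice after an intravitreal injection of NMDA, set against that of wild-type mice injected with PBS. It was chosen by genotype and treatment and holds 4 of the 12 libraries of the series, 2 per group. All 4 came from C57BL/6J mice, whose age and time from injection to harvest the labels do not give: 1 μL of 40 mM NMDA (40 nmol) went into the eye of one group and 1 μL of PBS into that of the other. Each library was made from polyA RNA pooled from more than 3 retinas of one treatment, with oligo-dT priming, and the labels do not tie the 2 libraries of a group to separate experiments, so the p-values measure only the spread between these libraries. The other 8 libraries, from retinas given an AAV that carries a short hairpin against Pax6 (shPax6) and from JNK3 knockout mice, entered the fit for its estimate of the spread and a short comparison. Of 55487 genes in the gene table, 16471 were tested, namely those whose group mean exceeded 1 FPKM in 1 or more of the 6 groups. FPKM is a fragment count scaled by transcript length and by the size of the library.

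NMDA opens the calcium-permeable glutamate receptors that bear its name. Prolonged opening overloads a neuron with calcium and can kill it, which is called excitotoxicity. In the retina the receptors are dense on retinal ganglion cells (RGCs), whose axons form the optic nerve, and on many amacrine cells, the inhibitory interneurons of the inner retina. Photoreceptors and rod bipolar cells carry few of them. Injury also calls up stress-activated kinases and transcription factors in the neurons, reactive change in Müller glia, the radial glia that span the retina, and chemokines that draw blood leukocytes.

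By the FPKM of the lowest expressed genes, which fall on near-whole steps, the 4 libraries held an estimated 23200000 to 25500000 fragments, so that 1 FPKM was worth 19.5 to 21.5 fragments for a 1 kb transcript and 89.1 to 98.0 fragments for a 4 kb one. These figures are estimates, and the error they carry is not known. The tissue was retina in every library: Gnat1, the transducin subunit of rods, was listed at 4254 and 4295 FPKM after PBS and at 5706 and 5668 FPKM after NMDA. The NMDA pair stood apart from the other 10 libraries in a way that bears on every value below. Its FPKM summed to 805627 and 820180, against 541210 to 576922 in the others, and the mean transcript length of its RNA pool was 1241 and 1219 nt, against 1733 to 1848 nt.

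Genes were called on 2 scales. On the deposited scale, log2(FPKM + 0.1), 2347 genes rose and 3441 fell after NMDA (limma, adjusted p under 0.05 and a log2 fold change beyond 1). These were 14.2% and 20.9% of the genes tested. On the length-corrected scale, from which each library's trend on spliced length had been taken, 1108 genes rose and 1859 fell, or 6.73% and 11.3% of 16452 genes with a length. A total of 706 genes (4.29%) rose on both scales and 1480 (9%) fell on both. No gene was called in opposite directions. Where a list is said to hold no rise or no fall, that too is by this limma test. The counts given for each list are to be read beside the above shares of all genes. The median log2 fold change of all genes was -0.09 on the deposited scale and 0.01 after the correction. The pseudocount of 0.1 understates the change of genes near 0.

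The balance between rises and falls depended on the scaling. Of the deposited calls 40.5% were rises. Rescaled to TPM, a unit in which every library sums to the same total, the median gene shifted by -0.57, 910 genes rose and 5888 fell, and the share of rises was 13.4%. Quantile normalization shifted the median by 0.26 and gave 4945 calls, 44.5% of them rises. A rise on the FPKM scale is therefore smaller in TPM and a fall larger. In what follows "rose" or "fell on both scales" refers to the deposited and the length-corrected FPKM. Of the calls of genes chosen by the naming rule, TPM ended 28 and quantile normalization 27 of 197 on the deposited scale. The deposited medians of 13 of 58 lists lay above 0 and turned negative in TPM. Besides those given with their lists, these were the autophagy (0.04 and -0.53), caspase (0.43 and -0.14), cell cycle (0.37 and -0.18), glycolysis (0.30 and -0.27), heat shock (0.29 and -0.28) and inflammasome lists (0.49 and -0.05).

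The change after NMDA followed the length of the spliced transcript. Genes under 1 kb (2946 genes) had a median log2 fold change of 1.03, those of 1 to 2 kb (4525) 0.53, those of 2 to 4 kb (5978) -0.32, and those over 4 kb (3003) -1.17. Under 1 kb 36.5% of genes were called as rises and 5.6% as falls, whereas over 4 kb 0.666% were rises and 57.4% falls. Spearman's rank correlation between length and log2 fold change was -0.57 over 16452 genes and -0.67 over the 13890 protein-coding ones. Leaving out ribosomal, respiratory chain, proteasome and mitochondrial genes gave -0.56 over 16167 genes. These values are across genes that share the same 4 libraries and carry no p.

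**Figure D1:**
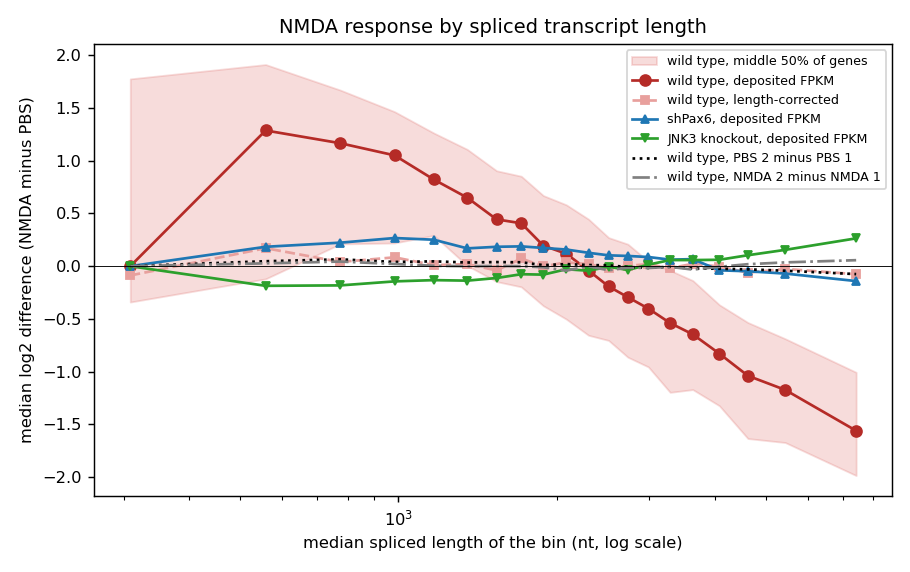
Median log2 difference (vertical axis) of tested genes in bins of spliced length (horizontal axis, nt, log scale) for wild type, with the middle 50% of genes shaded, for shPax6 and JNK3 knockout NMDA minus PBS, and for the differences between the wild-type replicate libraries. In the shortest bin, at 309 nt, the wild-type median was 0 (quartiles -0.34 and 1.78). From there on the wild-type medians ran from 1.29 in the bin at 559 nt to -1.56 in the bin at 7417 nt. The replicate differences lay near 0 in every bin and the length-corrected line stayed near 0.

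The trend was larger than the differences between replicate libraries. Between the 2 PBS libraries the bin medians lay between -0.05 and 0.03, and between the 2 NMDA libraries between -0.02 and 0.03. The rank correlation of length with these differences, replicate 2 minus replicate 1, was -0.15 for PBS and -0.02 for NMDA. In the shPax6 retinas the NMDA medians ran only from 0.18 under 1 kb to -0.07 over 4 kb (rank correlation -0.17, close in size to that between the PBS libraries), and in the JNK3 knockout retinas they sloped the other way, from -0.11 to 0.16 (rank correlation 0.23). After the correction the wild-type rank correlation was 0.01, and the share of genes called lay between 5.66% and 7.46% for rises and between 10.5% and 12.2% for falls in all 4 length classes.

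Length was not the only feature that went with the change. Genomic span, the distance from a gene's start to its end with introns, had a rank correlation of -0.41, which became -0.09 once spliced length was held constant, while length kept -0.43 with span held constant. Within the genes over 4 kb, the median was -0.81 for the 182 with a span under 10 kb, -0.92 for the 981 of 10 to 50 kb and -1.34 for the 1840 over 50 kb. The share of G and C in the transcript had a rank correlation of 0.36 with the fold change, and 0.34 with length held constant. Adding it to the correction left 2458 genes called in place of 2967. It ended 37 of the 181 corrected calls of genes chosen by the naming rule.

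Several noncoding classes lay below the coding genes after the correction, and some small RNA classes did not. Protein-coding genes had a length-corrected median of 0.04, with 603 of 13890 rising and 1172 falling on both scales. Of 44 sense intronic transcripts, which lie within introns of other genes, 14 fell and 1 rose on both scales (median -1.87). Of 219 loci annotated as awaiting experimental proof (TEC), 69 fell and 6 rose (median -0.61), and of 445 lincRNAs 56 fell and 11 rose (median -0.32). The 75 snoRNAs (0.055), 44 snRNAs (0.177) and 40 miRNA genes (0.114) had length-corrected medians above that of coding genes. On the deposited scale the median of each of these small RNA classes was 0, so the values above 0 appeared only with the correction. Each class held at most 1 rise and 1 fall on both scales. The authors' counting by strand is not given in the sources used here, so reads of intronic and antisense transcripts and of the genes they overlap cannot be told apart.

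The transcript table gave a second view of length, within genes. For the 8063 genes with 2 transcripts that passed the filter, the ratio of the longer to the shorter of the 2 most abundant transcripts was compared between treatments. The longer one became relatively less abundant in 1623 genes (20.1% of the pairs) and more abundant in 1385 (17.2%). Pairs of nearly equal length, with a ratio of at most 1.25, shifted towards the shorter transcript, with a median change of -1.19 over 2549 pairs, of which 68.8% lay below 0. Pairs further apart in length did not: the median was -0.11 for ratios of 1.25 to 2 (2090 pairs), 0.34 for 2 to 4 (1855 pairs) and 0.76 above 4 (1569 pairs). The within-gene shift thus did not run in the direction of the trend between genes where the transcripts differed most in length. Among nearly equal pairs the shift was -0.18 where the longer transcript was under 1 kb and -1.94 where it was over 4 kb.

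**Figure D2:**
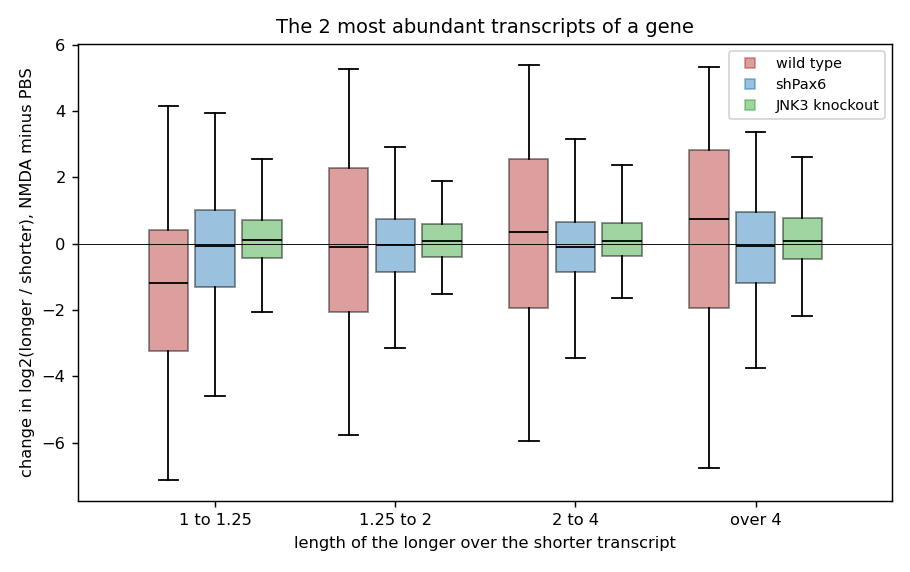
Change after NMDA in the log2 ratio of the longer to the shorter of a gene's 2 most abundant transcripts (vertical axis), by the ratio of their lengths (horizontal axis), for wild type, shPax6 and JNK3 knockout; boxes span the quartiles with the median as a line and whiskers run from the 5th to the 95th percentile of pairs. The wild-type medians ran from -1.19 at nearly equal lengths to 0.76 at ratios above 4, and those of the other genotypes lay between -0.10 and 0.11.

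In 3160 of the pairs at least 1 of the 8 wild-type values was 0, and such pairs made 1413 of the 3008 calls. The counts also rested on the PBS libraries: without PBS replicate 1 there were 1695 calls and without PBS replicate 2 there were 1896. The 5 largest changes with both transcripts above 1 FPKM in both groups were in Rph3a, Rpl10, Gpsm1, Plxnb2 and Ahi1. For Rph3a, a synaptic vesicle protein, the 4150 nt transcript was listed at 52.5 and 53.4 FPKM after PBS and at 10.1 and 0 FPKM after NMDA, and the 4096 nt transcript at 2.65 and 0.24 against 9.27 and 18.7 FPKM. The ratio of the Rph3a pair fell by 9.49 on the log2 scale (SE 2.26, adjusted p = 0.0138). Gpsm1, a regulator of G proteins, moved from its 3432 nt transcript (17.1 and 13.2 against 1.29 and 5.11 FPKM) to a 2043 nt one (3.05 and 0 against 47.0 and 42.4 FPKM). Ahi1, a protein of the ciliary transition zone, moved from a 4851 nt transcript (33.0 and 27.1 against 1.79 and 2.43 FPKM) to a 2067 nt one (0.33 and 4.85 against 44.6 and 49.1 FPKM). In Plxnb2, a semaphorin receptor, the shorter of the pair was an 834 nt transcript not annotated as coding, which went from 2.44 and 3.52 to 48.6 and 44.5 FPKM. Rpl10, a large-subunit ribosomal protein, went the other way: its 799 nt transcript was listed at 197 and 237 against 1181 and 1220 FPKM and its 648 nt transcript at 157 and 128 against 17.7 and 0 FPKM. RSEM divides fragments among transcripts by likelihood, and transcripts of such similar length share most of their sequence, so their split is uncertain.

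The gene lists were described with both scales side by side, since many lists of short or of long transcripts moved towards 0 with the correction. Ribosomal protein genes, with a median length of 655 nt, had a deposited median of 2.10 and a corrected one of 1.01. Chromatin regulators, at 5537 nt, went from -0.93 to 0.15, and glutamate receptors, at 4876 nt, from -1.26 to -0.45. The RGC list kept most of its fall (-2.14 and -1.55), and so did the clustered protocadherins (-2.14 and -1.25). The neutrophil list (1.70 and 1.76) and the activated microglia list (0.70 and 0.85) did not move towards 0.

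**Figure D3:**
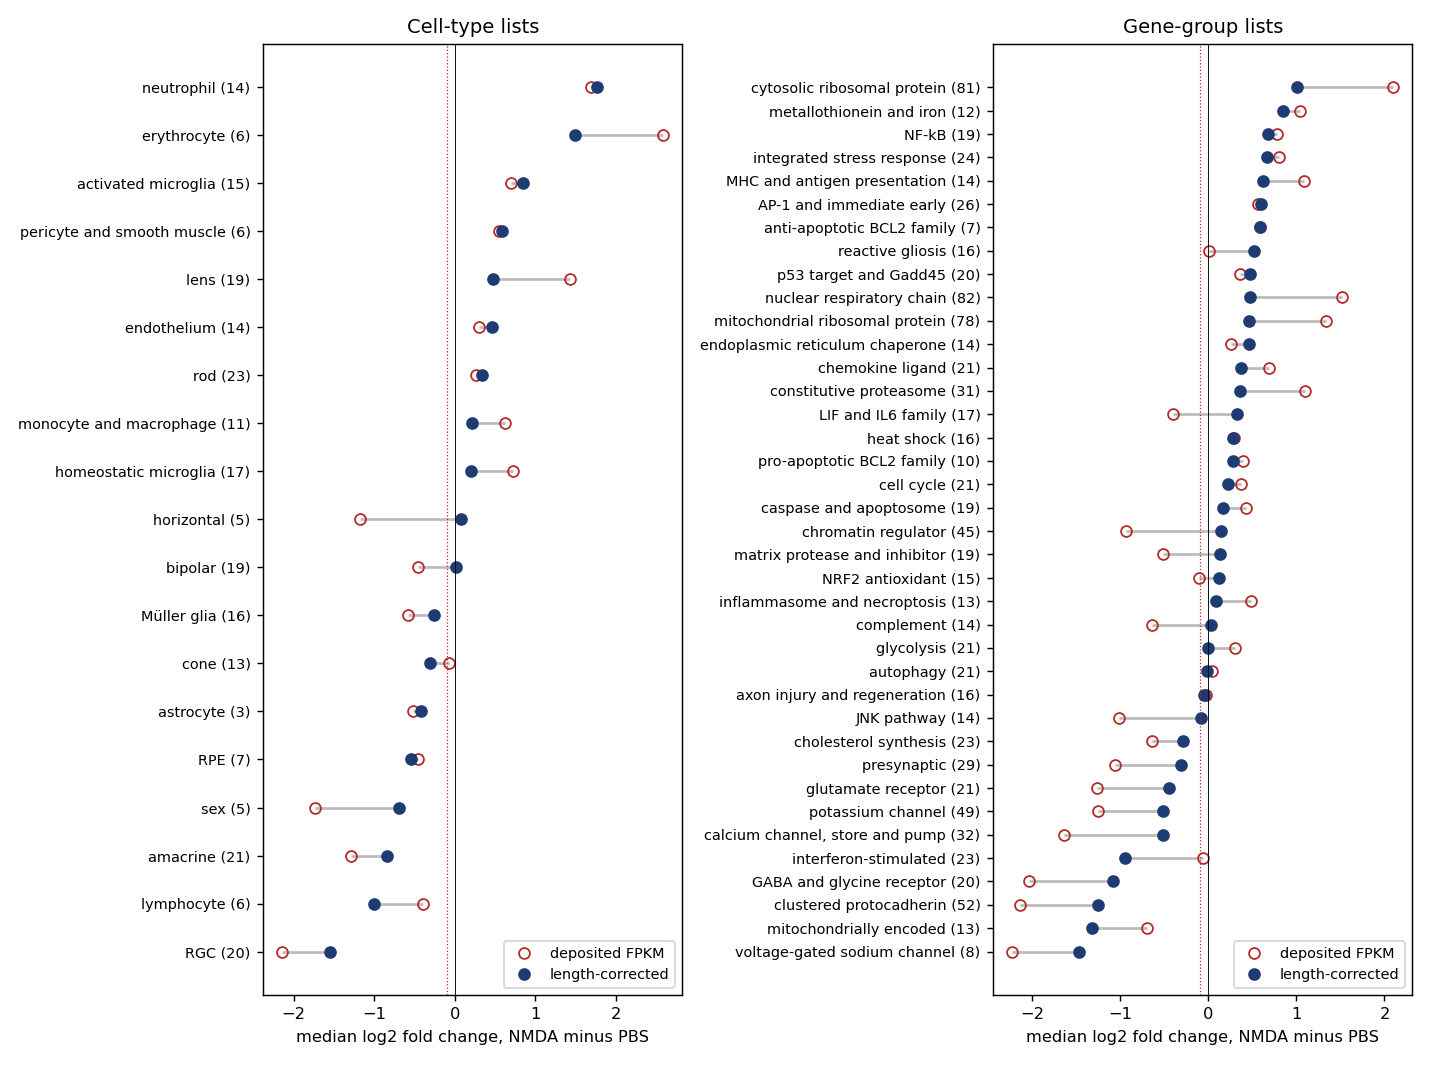
Median log2 fold change, NMDA minus PBS, of the tested members of each gene list (number in parentheses), on the deposited scale (open circles) and after the length correction (filled circles), with the median of all genes as a dotted line. RGC genes lay at -2.14 and -1.55, neutrophil genes at 1.70 and 1.76, and the gray lines show how far the correction moved each list.

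RGC genes fell. Of the 20 tested members of the RGC list, 14 fell on both scales and none rose, against 9% of all genes that fell, and the summed level of the list was 729 and 755 FPKM after PBS and 374 and 393 FPKM after NMDA. In bulk RNA fewer RGCs and less RNA per RGC cannot be told apart. Nefl, the light neurofilament of large axons, was listed at 162 and 160 FPKM after PBS and at 27.7 and 25.5 FPKM after NMDA. Its log2 fold change was -2.60 (SE 0.08, adjusted p = 3.24e-08), and -2.03 after the correction. Nrn1, a neurite-promoting protein of RGCs, was not chosen by the naming rule and is given because it fell more after the correction than before: from 36.2 and 38.0 to 7.96 and 8.39 FPKM, or -2.17 and -2.58.

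The transcription factors and RNA-binding proteins that define RGCs moved the same way with more spread. Rbpms2 was listed at 16.4 and 18.0 against 6.6 and 7.49 FPKM, with log2 fold changes of -1.28 and -1.51 on the 2 scales. Rbpms, the RNA-binding protein most used to count RGCs, was listed at 16.5 and 17.3 against 4.57 and 7.84 FPKM (-1.48, SE 0.35, adjusted p = 0.00541). Its deposited call rested on NMDA replicate 1: without it the change was -1.10 (adjusted p = 0.0527). Its corrected call ended with the union of exons as length (-0.94). Pou4f2 and Slc17a6, an RGC transcription factor and the vesicular glutamate transporter of RGCs, were listed at 2.71 and 3.07 against 0.15 and 0.72 FPKM and at 21.5 and 20.6 against 2.34 and 2.91 FPKM. Their corrected changes of -2.22 and -2.16 were called with all libraries, but that of Slc17a6 not with GC content (-1.75, adjusted p = 0.0829). Without any single wild-type library that of Slc17a6 was not (adjusted p 0.0907 to 0.139), and that of Pou4f2 was not without NMDA replicate 1 (-1.35, adjusted p = 0.192) or either PBS replicate.

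Some RGC genes were not called on both scales. Thy1, a surface protein long used to label RGCs but also found on other retinal cells, was listed at 142 and 145 FPKM after PBS and 136 and 154 FPKM after NMDA, and the groups overlapped. Sncg, gamma-synuclein, was listed at 128 and 145 against 112 and 116 FPKM (-0.26 deposited, not called, and -1.34 corrected, called as a fall). Nefh, the heavy neurofilament, at 28.8 and 29.4 against 18.7 and 16.9 FPKM, was lower in both NMDA libraries but not called on either scale (-0.71 and 0.08). These 3 are members of the list outside the naming rule, named after their values were seen.

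Of the 21 tested amacrine genes 6 fell and 1 rose on both scales, with medians of -1.29 and -0.84. The falling members covered both GABA and acetylcholine handling. Chat, which makes acetylcholine in starburst amacrine cells, was listed at 6.35 and 5.16 against 1.33 and 0.49 FPKM (-2.67, SE 0.46, adjusted p = 0.000778), and Slc5a7, the choline transporter of the same cells, at 5.08 and 4.28 against 0.39 and 0.46 FPKM. Gad1, the larger GABA-producing decarboxylase, fell from 108 and 105 to 35.7 and 36.5 FPKM (-1.55 and -1.13), with -0.87 and no call when the union of a gene's exons stood for its length.

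The exception was Npy, a neuropeptide of some amacrine cells. It was listed at 28.7 and 26.5 FPKM after PBS and at 132 and 112 FPKM after NMDA, and rose by 2.14 deposited and 1.02 corrected. The corrected call ended without PBS replicate 2 (0.93), without NMDA replicate 1 (0.86) and with GC content in the correction (0.78).

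Horizontal cell genes fell or gave no call, and bipolar genes moved in both directions. All 5 horizontal cell genes, and 7296 of all 16471 genes tested, had both NMDA values below both PBS values. The 5 horizontal cell genes had medians of -1.18 deposited and 0.08 corrected. Of these 2 fell on both scales, Lhx1 (2.68 and 2.84 against 0.35 and 0.88 FPKM) and Onecut1 (1.36 and 0.82 against 0.08 and 0.09 FPKM), both transcription factors at low levels whose calls ended in 3 of the 4 fits that left out a wild-type library, with changes of -2.15 to -1.36 for Lhx1 on the 2 scales and corrected changes of -2.03 to -1.65 for Onecut1. With a pseudocount of 1 that of Onecut1 was -0.37 and not called. Of 19 bipolar genes 2 fell and 1 rose on both scales. Lrit3, which anchors the glutamate signaling complex of ON bipolar dendrites, fell from 22.6 and 21.8 to 2.31 and 3.15 FPKM (-2.99, SE 0.17, adjusted p = 6.18e-07). Isl1, a transcription factor shared by ON bipolar, amacrine and ganglion cells, fell from 34.1 and 32.4 to 13.8 and 12.1 FPKM. Gng13, a short G protein subunit of ON bipolar cells, rose from 225 and 214 to 960 and 935 FPKM (2.11 and 1.16), with no call when GC content was added (0.80) or after quantile normalization (0.91).

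Photoreceptor genes as a group stayed near the median of all genes. Of 23 rod genes 1 rose and 1 fell on both scales, with medians of 0.26 and 0.34; the deposited median was -0.31 in TPM and -0.82 after quantile normalization, so its sign depended on the scaling. Gnat1, which carries the light signal onward in rods, had log2 fold changes of 0.41 and 0.48 and was not called. The 2 exceptions were large. Rgs9, the protein that switches transducin off, fell from 217 and 197 to 11.3 and 19.3 FPKM, with log2 fold changes of -3.80 (SE 0.19, adjusted p = 3.68e-07) and -3.70. Cngb1, a subunit of the rod cyclic nucleotide-gated channel, rose from 284 in both PBS libraries to 709 and 705 FPKM (1.31 on both scales), with 0.74 in TPM, 0.20 after quantile normalization and 0.96 with GC content in the correction, none of them called. Rgs9 is also made in other neurons, and Cngb1 has a short isoform that shares its start.

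Of 13 cone genes 1 rose and 1 fell on both scales. Opn1sw, the short-wavelength cone pigment, was listed at 111 and 117 against 61.8 and 52.4 FPKM and passed the deposited threshold narrowly (-1, SE 0.12, adjusted p = 6.69e-05), with -0.88 and no call without NMDA replicate 2. Opn1mw, the medium-wavelength pigment, was listed at 108 and 109 against 109 and 116 FPKM.

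Some transport genes of Müller glia fell, and their visual cycle gene gave no call. Of 16 genes 3 fell and none rose on both scales. Aqp4, the water channel of Müller endfeet, fell from 22.9 and 21.6 to 3.05 and 3.46 FPKM (-2.74, SE 0.10, adjusted p = 6.21e-08, and -1.85 corrected). Mlc1, a membrane protein of the same endfeet, fell from 41.5 and 44.3 to 13.4 and 13.6 FPKM. Abca8a, a lipid transporter, fell from 35.4 and 41.9 to 12.1 and 7.87 FPKM, with a corrected change of -1.21 that was -0.92 without NMDA replicate 2 and -0.96 with GC content in the correction. Rlbp1, the retinoid carrier of Müller cells, was listed at 49.1 and 51.7 against 63.5 and 67.7 FPKM, and Glul, glutamine synthetase, at 214 and 215 against 168 and 164 FPKM. Neither was called.

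Some known genes of reactive gliosis rose, and Gfap was not called. Of 16 genes of that list 4 rose and 2 fell on both scales. Gfap, the intermediate filament most used as a gliosis marker, was listed at 78.0 and 81.6 FPKM after PBS and 55.7 and 55.3 FPKM after NMDA (-0.52 and -0.29, not called). Vim, vimentin, rose from 339 and 368 to 1154 and 1169 FPKM (1.72, SE 0.07, adjusted p = 1.47e-07, and 1.19), with 0.38 and no call after quantile normalization. Cebpd, a transcription factor of the acute phase, rose from 28.1 and 26.02 to 80.5 and 67.5 FPKM (1.44, and 0.87 with no call in TPM). Serpina3n, a secreted protease inhibitor, fell from 181 and 185 to 77.4 FPKM in both NMDA libraries (-1.24 and -1.33). The list's deposited median of 0.01 was -0.56 in TPM and its corrected median was 0.52.

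Genes of leukocytes moved by cell type. Of the 14 tested neutrophil genes 8 rose on both scales and none fell, beside 4.29% of all genes that rose, and the list summed to 243 and 270 FPKM after PBS and 2017 and 2053 FPKM after NMDA. S100a9, a partner in the calprotectin dimer that neutrophils carry in bulk, rose from 92.9 and 99.6 to 1146 and 1115 FPKM (3.55, SE 0.17, adjusted p = 2.6e-07, and 2.49 corrected). S100a8, the other partner, rose from 92.6 and 108 to 645 and 721 FPKM. Retnlg, a resistin-like protein of mouse neutrophils, rose from 2.09 and 3.2 to 129 and 128 FPKM. Its log2 fold change of 5.58 (SE 0.73, adjusted p = 0.000131), or 4.44 corrected, headed the genes named by size of rise. The surface receptors of neutrophils did not follow: Csf3r, the receptor for granulocyte colony-stimulating factor, was listed at 18.2 and 18.9 against 16.98 and 14.2 FPKM, and Cxcr2, the receptor for CXCL1 and CXCL2, at 6.03 and 5.69 against 6.42 and 5.33 FPKM. Both were singled out after their values were seen. The granule genes Camp, Elane and Mpo did not pass the filter.

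Both microglial lists summed higher after NMDA, with falls among the resting genes. Of 15 genes of activated microglia and phagocytes 3 rose and none fell on both scales, and their sum went from 298 and 313 to 961 and 966 FPKM. Lgals3, a galectin of phagocytes, rose from 11.1 and 13.8 to 124 and 130 FPKM (3.36, SE 0.12, adjusted p = 5.67e-08, and 2.52). The lysosomal membrane proteins Cd68 and Cd63 rose from 7.25 and 8.17 to 33.6 and 35.4 FPKM and from 119 and 127 to 583 FPKM in both NMDA libraries. The list of resting microglia summed to 127 and 138 against 313 and 306 FPKM, with medians of 0.72 deposited, 0.15 in TPM and 0.195 corrected. Of its 17 tested genes 1 rose and 2 fell on both scales. Tmem119 and P2ry12, which define the resting state, fell on both scales, Tmem119 from 1.07 and 1.35 to 0.51 and 0.28 FPKM and P2ry12 from 1.15 and 0.58 to 0.08 and 0.26 FPKM. The NMDA values of both rest on few fragments: with a pseudocount of 1 or after quantile normalization neither was called, and P2ry12 was not called with GC content in the correction (-1.39, adjusted p = 0.0827), or without PBS replicate 1 (-1.42 deposited, adjusted p = 0.125) or NMDA replicate 1 (-1.36, adjusted p = 0.114). Trem2, a lipid receptor of phagocytes, was the rise, from 1.32 and 1.16 to 5.25 and 8.44 FPKM (2.34 and 1.53). Tyrobp, its signaling partner, went from 47.4 and 51.9 to 176 and 158 FPKM and was called on the deposited scale alone (1.75 and 0.61), and is named after its values were seen.

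Of 11 monocyte genes 1 rose on both scales, Ms4a7, from 0.18 and 0.49 to 1.62 and 3.81 FPKM, with a corrected change of 1.80 that was 1.20 (adjusted p = 0.0883) without NMDA replicate 2 and 1.28 (adjusted p = 0.0935) without PBS replicate 1, and 0.69 (adjusted p = 0.0719) with a pseudocount of 1. Ccr2, the receptor of inflammatory monocytes for CCL2, was listed at 4.61 and 4.74 against 2.77 and 2.84 FPKM and was not called on both scales. Of 6 lymphocyte genes 1 fell on both scales and none rose. The fall was Cd3g, at 0.45 and 0.5 FPKM after PBS and 0 in both NMDA libraries, so it passed the filter through another genotype. Its deposited call (-2.52) ended without any single wild-type library, with a pseudocount of 0.5 or 1 and after quantile normalization.

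Lists of other tissues that can come along with a dissected retina differed from each other. The 7 listed erythrocyte genes summed to 97.3 and 107 against 613 and 650 FPKM, and 3 of the 6 tested rose on both scales. The lens list went from 299 and 297 to 882 and 897 FPKM. Of its 19 tested genes 10 rose on the deposited scale (52.6%), where 36.5% of all genes under 1 kb did. On both scales 1 rose, Crybb3 (5.26%, near the 4.29% of all genes). The Crybb3 rise was not called when any single wild-type library was left out (corrected 0.96 to 1.12) or with GC content in the correction (0.68). The globin and crystallin transcripts are short, with a length-corrected lens median of 0.48 beside a deposited 1.43, and the globin genes are near-identical copies. Of 7 tested pigment epithelium genes 1 fell on both scales, Rpe65, from 2.32 and 1.81 to 0.57 and 0.66 FPKM. The pigment epithelium list as a whole summed to 66.4 and 72.6 against 91.0 and 83.5 FPKM. The part of blood, lens or pigment epithelium in the retinal changes was not tested.

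**Figure D4:**
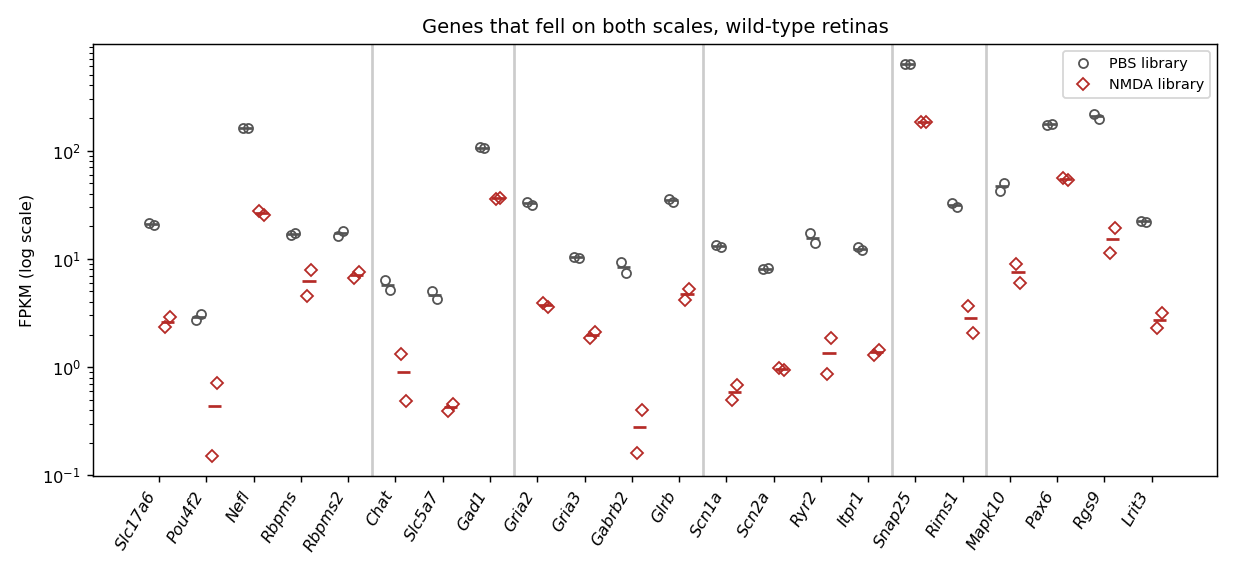
FPKM (vertical axis, log scale) in each wild-type library, PBS as circles and NMDA as diamonds with a bar at the mean of each pair, for genes that fell on both scales: RGC genes, amacrine genes, transmitter receptors, ion channels, release proteins, and Mapk10, Pax6, Rgs9 and Lrit3. Both NMDA libraries lie below both PBS libraries for every gene drawn, which the choice of called genes favors.

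Genes for electrical signaling fell, by more and in larger number on the deposited scale than after the length correction. Of 8 tested sodium channel genes 5 fell on both scales and none rose, with medians of -2.22 and -1.46. Scn1a, which encodes a pore subunit that starts action potentials, fell from 13.6 and 12.9 to 0.5 and 0.69 FPKM (-4.28, SE 0.19, adjusted p = 1.66e-07, and -2.85 corrected), and Scn2a from 8.07 and 8.22 to 0.98 and 0.94 FPKM. Scn8a, the pore subunit of mature axon initial segments, was listed at 21.2 and 19.2 against 8.54 and 8.2 FPKM and was called on the deposited scale (-1.26) but had a corrected change of 0.09. It is a member outside the naming rule, given because its change was near 0 after the correction.

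Potassium channel genes followed the same division, with 30 of 49 falling on the deposited scale and 11 on both (22.4%), and medians of -1.25 and -0.51. Of all genes 20.9% fell on the deposited scale and 9% on both, and of those over 4 kb 57.4% fell on the deposited scale. Kcna1, a delayed rectifier subunit, fell from 5.04 and 4.35 to 0.22 and 0.53 FPKM (-3.41 and -2.64), and Kcna3, a relative of it, from 3 and 2.13 to 0 and 0.07 FPKM. Of 32 calcium channel, pump and store genes 21 fell on the deposited scale and 10 on both (31.2%), with medians of -1.64 and -0.51. Ryr2, a calcium release channel of internal stores, fell from 17.4 and 14.04 to 0.87 and 1.85 FPKM (-3.52 and -2.01), Itpr1, the other main release channel, from 12.95 and 11.98 to 1.3 and 1.43 FPKM, and Atp2b3, a calcium pump of the plasma membrane, from 6.48 and 6.96 to 0.35 and 0.77 FPKM.

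Transmitter receptors separated by class. Of 21 glutamate receptor genes 13 fell on the deposited scale and 3 on both. The receptor for NMDA itself gave no call on both scales: Grin1, its obligatory subunit, was listed at 29.8 and 27.03 against 20.7 and 14.1 FPKM (-0.73 and -0.04), and Grin2a at 1.57 and 1.4 against 0.07 and 0.15 FPKM (-2.94, and -1.03 corrected with an adjusted p of 0.0789). Gria2, the AMPA receptor subunit that makes the channel impermeable to calcium, fell from 33.4 and 31.7 to 3.88 and 3.62 FPKM (-3.08, SE 0.11, adjusted p = 6.21e-08, and -2.002). Gria3, another AMPA subunit, fell from 10.5 and 10.1 to 1.87 and 2.13 FPKM, with a corrected -1.27 that was -0.86 and not called with GC content. Of 20 GABA and glycine receptor genes 10 fell on both scales, with medians of -2.03 and -1.08. Gabrb2, a beta subunit of GABA receptors, fell from 9.41 and 7.47 to 0.16 and 0.4 FPKM (-4.56 and -3.80), and Glrb, the beta subunit of glycine receptors, from 35.8 and 33.5 to 4.19 and 5.24 FPKM (-2.86 and -2.71).

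Of 29 presynaptic genes 5 fell on both scales and none rose. Snap25, a membrane protein of the release machinery, fell from 636 and 627 to 182 and 185 FPKM (-1.78, SE 0.04, adjusted p = 1.45e-08, and -1.94), and Rims1, a scaffold of the release site, from 33.1 and 30.2 to 3.66 and 2.06 FPKM (-3.48 and -3.02). Syp, synaptophysin of the vesicle membrane, was listed higher, at 417 and 420 against 647 and 661 FPKM (0.64 and 0.85, not called).

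Chemokine ligands rose in part. Of 21 tested 8 rose and 1 fell on both scales, 5 had both NMDA values below both PBS values, and the medians were 0.69 deposited and 0.38 corrected. Of all 16471 genes tested, 7296 had both NMDA values below both PBS values. The list summed to 158 and 157 FPKM after PBS and 488 and 481 FPKM after NMDA. Ccl2, which draws monocytes, rose from 4.61 and 4.39 to 138 and 126 FPKM (4.84, SE 0.31, adjusted p = 1.48e-06, and 3.73 corrected). Cxcl2, which draws neutrophils, rose from 0.98 and 1.37 to 36.0 and 36.9 FPKM (4.86, SE 0.57, adjusted p = 6.69e-05, and 3.93), and Ccl7, a monocyte attractant next to Ccl2 on chromosome 11, from 1.54 and 2.1 to 37.1 FPKM in both NMDA libraries. Ccl3 and Ccl4, made by activated microglia and macrophages, rose from 3.48 and 2.93 to 34.8 and 39.1 FPKM and from 0.86 and 2.29 to 34.8 and 34.3 FPKM. The corrected call of Ccl4 (3.34) ended without PBS replicate 1, at 2.703 with an adjusted p of 0.0582. Cxcl13, a B cell attractant, was the fall, from 1.65 and 1.67 to 0.31 and 0.71 FPKM, and was not called on the deposited scale without either PBS replicate (-1.62 and -1.60) or NMDA replicate 1 (-1.12).

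**Figure D5:**
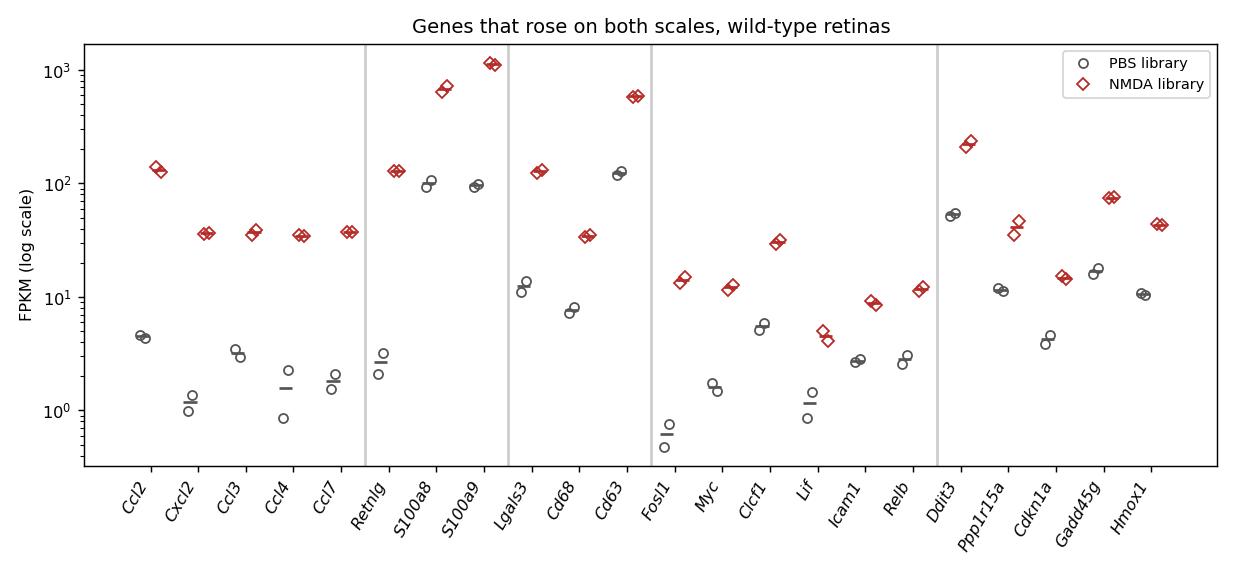
FPKM (vertical axis, log scale) in each wild-type library, PBS as circles and NMDA as diamonds with a bar at the mean of each pair, for genes that rose on both scales: chemokines, neutrophil genes, phagocyte genes, transcription factors and cytokines, and stress genes. Both NMDA libraries lie above both PBS libraries for every gene drawn, which the choice of called genes favors, with Ccl2 going from 4.61 and 4.39 to 138 and 126 FPKM.

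Genes of the NF-kB list rose in part, and those of the interleukin-6 family moved in both directions. Of 19 NF-kB genes 5 rose on both scales and none fell. Relb and Nfkb2, the 2 partners of the non-canonical dimer, rose from 2.56 and 3.1 to 11.4 and 12.2 FPKM (2.02 and 1.95) and from 3.35 and 3.21 to 11.1 and 9.27 FPKM (1.60 and 2.06), and Icam1, the leukocyte adhesion molecule, from 2.66 and 2.83 to 9.12 and 8.55 FPKM. Nfkb1, a canonical subunit, was listed at 12.7 and 11.4 against 10.6 and 11.7 FPKM, overlapping between groups. Of 17 genes of the leukemia inhibitory factor and interleukin-6 family 6 rose on both scales and 4 fell on the deposited scale alone. The medians of that list were -0.40 deposited, -0.98 in TPM and 0.32 corrected. Clcf1, a ligand of the ciliary neurotrophic factor receptor, rose from 5.15 and 5.85 to 29.1 and 31.4 FPKM (2.44, SE 0.15, adjusted p = 1e-06), and Osm, oncostatin M, from 0.07 and 0.06 to 2.39 and 2.02 FPKM. Lif, the cytokine that Müller cells make after photoreceptor injury, was listed at 0.85 and 1.46 against 4.98 and 4.13 FPKM (1.93, SE 0.53, adjusted p = 0.0111). The Lif call ended in TPM (1.41, adjusted p = 0.0532), without PBS replicate 1 (1.57) and without NMDA replicate 1 (1.80). Il1b, interleukin-1 beta, rose from 15.9 and 18.6 to 89.7 and 82.1 FPKM, and Ninj1, which ruptures the membrane of dying cells, from 14.9 and 14.8 to 65.8 and 74.1 FPKM. These were the 2 rises among 13 inflammasome genes, whose other tested members, Nlrp3 and Pycard included, were not called on both scales.

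Of the 26 tested AP-1 and immediate early genes, transcription factors switched on by stress and activity, 6 rose and 1 fell on both scales. Fosl1 rose from 0.48 and 0.76 to 13.2 and 15.1 FPKM (4.33, SE 0.50, adjusted p = 5.99e-05, and 4.09), and Myc, a growth regulator, from 1.75 and 1.48 to 11.6 and 12.9 FPKM (2.85 and 2.699). Junb and Atf3, 2 more members that rose, went from 48.1 and 48.3 to 173 and 141 FPKM and from 18.7 and 16.2 to 46.9 and 42.0 FPKM and lie outside the naming rule. The founding members were not called: Fos was listed at 18.1 and 18.5 against 17.6 and 16.2 FPKM, Fosb at 3.72 and 3.76 against 3.14 and 3.86 FPKM, and Jun at 23.1 and 22.1 against 23.3 and 21.8 FPKM. The list's deposited median of 0.56 was -0.01 in TPM. Nr4a2, an orphan nuclear receptor, fell from 2.49 and 2.83 to 0.48 and 0.7 FPKM, with a corrected change of -1.59 whose adjusted p was 0.0592 without NMDA replicate 1 and 0.0587 without PBS replicate 2.

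Genes of the JNK cascade, the kinases that phosphorylate JUN, fell or gave no call. Of 14 genes 7 fell on the deposited scale and 3 on both, where 20.9% and 9% of all genes did. The list medians were -1.01 deposited and -0.08 corrected. Mapk10, which encodes JNK3, the neuronal JNK, was listed at 42.8 and 50.7 FPKM after PBS and 8.98 and 6.0 FPKM after NMDA (-2.65, SE 0.36, adjusted p = 0.00018, and -2.47 corrected). Mapk8 (JNK1) fell from 25.8 and 27.1 to 6.62 and 8.18 FPKM (-1.83 and -1.24), with -0.68 with GC content and -0.80 with the union of exons, both not called. Mapk9 (JNK2) was listed at 48.2 and 45.4 against 14.99 and 17.99 FPKM and was called on the deposited scale alone (-1.504 and -0.97). Map3k9, an upstream kinase, fell from 4.22 and 3.64 to 0.47 and 0.86 FPKM.

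The stress programs that slow translation and arrest the cell cycle rose in part. Of 24 tested genes of the integrated stress response 4 rose on both scales and none fell. Atf4, its central transcription factor, was listed at 159 and 170 against 334 and 322 FPKM and lay just under the threshold of size (0.99 and 0.67). Ddit3, which encodes CHOP, rose from 51.9 and 54.6 to 210 and 236 FPKM (2.06, SE 0.09, adjusted p = 1.51e-07). Its corrected change of 1.01 was at the threshold and was not called without PBS replicate 1 (0.99), without NMDA replicate 2 (0.92) or with GC content (0.70). Ppp1r15a, which restarts translation, rose from 11.9 and 11.2 to 35.3 and 46.9 FPKM (1.81 and 1.56), and Phgdh, of serine synthesis, from 7.43 and 4.04 to 25.3 and 23.3 FPKM (2.13 and 1.77). The chaperones of the endoplasmic reticulum did not join on both scales: Hspa5 was listed at 190 and 187 against 241 and 235 FPKM, and the deposited median of 0.26 for that list was -0.31 in TPM. Of 16 heat shock genes 1 rose and 2 fell on both scales, and Hspa1a, the inducible member, was listed at 19.2 and 18.4 against 23.7 and 20.9 FPKM.

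Of 20 genes of the p53 and Gadd45 list 5 rose on both scales and none fell. Cdkn1a, the p21 cell cycle inhibitor, rose from 3.83 and 4.61 to 15.2 and 14.4 FPKM (1.79, SE 0.18, adjusted p = 2.28e-05, and 1.60), and Phlda3, an inhibitor of AKT, from 9.21 and 8.14 to 40.5 and 38.3 FPKM (2.17 and 1.49). Gadd45g, a stress sensor, rose from 16.0 and 17.8 to 74.3 and 75.3 FPKM (2.14 and 1.24, with 0.88 and no call with GC content). Mdm2, a p53 target that degrades p53, was listed at 20.7 and 21.6 against 15.9 and 18.5 FPKM and was not called. The list's deposited median of 0.36 was -0.15 in TPM.

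On both scales some caspase and apoptosome genes were called, and no pro-apoptotic BCL2 family gene was. Of 10 pro-apoptotic BCL2 family genes 3 rose on the deposited scale and none was called on both. Bax, which opens the outer mitochondrial membrane, was listed at 34.0 and 41.1 against 118 and 113 FPKM and rose on the deposited scale (1.62, SE 0.13, adjusted p = 7.07e-06) with a corrected change of 0.58. Bad, which inhibits survival members of the family, was listed at 18.6 and 22.9 against 47.2 and 46.0 FPKM (1.17, and 0.19 corrected). Their transcripts are short, and the deposited median of the list, 0.39, was -0.17 in TPM. Among 19 caspase and apoptosome genes 3 rose (15.8%) and 1 fell (5.26%) on both scales, where 4.29% and 9% of all genes did. Apaf1, the core of the apoptosome, rose from 4.06 and 5.29 to 10.5 and 16.0 FPKM, with 1.47 deposited and 2.24 corrected, and 0.91 with no call in TPM. Casp2 fell from 10.5 and 8.74 to 3.01 and 3.59 FPKM, with -1.51 and -1.30, and -0.91 with no call when the union of exons gave the length. Bcl2a1b, an anti-apoptotic member made by leukocytes, rose from 5.39 and 6.13 to 33.8 and 26.7 FPKM, and belongs to a family of near-identical copies.

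Promoter letters of some of these genes are shown to place the response beside the factors named above. A search of the 250 bases before each RefSeq gene start (GRCm38.p6) on both strands for TGANTCA, the site of FOS and JUN dimers, found it in 6.6% of 561 promoters of genes that rose on both scales, in 3.97% of 1183 promoters of genes that fell, and in 4.53% of 14027 promoters of all tested coding genes. These promoters belong to 10910 of 13877 tested coding genes, and a gene can have more than 1. For GGGNNTTCC, the site of NF-kB dimers, the shares were 7.13%, 5.75% and 6.17%, and for TGACGTCA, the site of CREB and ATF dimers, 3.39%, 2.03% and 2.52%. A match is a description of letters and no evidence of binding. Each window printed here holds 30 bases on the gene's strand, 5′ to 3′, with the matched letters in capitals. The first set is TGANTCA in genes that rose:
Plaur, chr7:24462403-24462432, plus strand: acccctggagcTGACTCActctttagcaaa
Ddit3, chr10:127290543-127290572, plus strand: cgcgcgcaTGACTCActcacctcctccgcg
Lif, chr11:4257329-4257358, plus strand: ccagtcagctgTGACTCAggccatagtggc

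A second set holds the letters searched for NF-kB dimers, on either strand, in 2 genes of that list, of whose 17 promoters 35.29% held a match:
Nfkb2, chr19:46304688-46304717, plus strand: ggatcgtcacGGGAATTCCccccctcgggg
Bcl3, chr7:19822840-19822869, minus strand: cgcgggtccaGGAAACCCCtggggcggacg

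The last set holds TGACGTCA, in Ppp1r15a, which rose, and in Mapk10 and Pax6, which fell, so that the same letters stood before genes of both directions:
Ppp1r15a, chr7:45526269-45526298, minus strand: gagaccccgcctctccggTGACGTCAgcac
Mapk10, chr5:103211345-103211374, minus strand: tctctgggcttTGACGTCAtgtgtgctcct
Pax6, chr2:105668809-105668838, plus strand: tctggccgccgTGACGTCAtccgcgcccgg

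Nuclear genes for protein synthesis and respiration, most of them short, rose on the deposited scale, on which 36.5% of all genes under 1 kb rose. Of 81 cytosolic ribosomal protein genes 80 rose on the deposited scale and 43 on both, and none fell. The summed level of the list went from 32493 and 34674 to 143829 and 150088 FPKM. Rpl41, the shortest of them, rose from 676 and 719 to 4634 and 5064 FPKM (2.80, SE 0.06, adjusted p = 1.45e-08, and 1.81 corrected), and Rpl36 from 335 and 368 to 2192 and 2252 FPKM (2.66 and 1.83). The list's deposited median of 2.10 was 1.53 in TPM, and over all alternatives lay between 0.78 and 2.15. Of 82 nuclear respiratory chain genes 66 rose on the deposited scale and 10 on both (12.2%, medians 1.52 and 0.47), and Atp5b, a catalytic subunit of the ATP synthase, rose from 638 and 704 to 2408 and 2650 FPKM (1.91 and 1.26, with 0.68 and no call after quantile normalization). Of 78 mitochondrial ribosomal protein genes 54 rose on the deposited scale and 4 on both (5.13%, near the 4.29% of all genes), and of 31 proteasome genes 19 and 3 (9.68%). Many ribosomal protein genes have processed pseudogenes that can take or lend reads.

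The genes of the mitochondrial genome went the other way although they are short. Their sum fell from 45003 and 45335 to 22953 and 23021 FPKM, and 4 of 13 fell on both scales with none rising on both. mt-Co1, a catalytic subunit of complex IV, fell from 10592 and 10917 to 3302 and 3163 FPKM (-1.73, SE 0.05, adjusted p = 3.24e-08, and -2.20). mt-Nd4l, a subunit of complex I, fell from 2535 and 2459 to 528 and 515 FPKM, and mt-Atp8 from 8120 and 7794 to 2005 and 1913 FPKM, with a corrected -2.32 that was -0.82 and not called with GC content. mt-Atp6, whose frame overlaps that of mt-Atp8 on one transcript, was listed higher, at 522 and 504 against 795 and 832 FPKM (0.67 and -0.51), so the split between this pair is uncertain. mt-Co2 was listed at 1088 and 939 against 2007 and 2279 FPKM and was named after its values were seen as the 1 rise on the deposited scale (1.08, and -0.10 corrected).

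Other metabolic lists were mixed. Mt1 and Mt2, the metal-binding metallothioneins, rose from 491 and 552 to 2349 and 2497 FPKM (2.22 and 1.11) and from 416 and 463 to 2166 and 2332 FPKM (2.35 and 1.29), as 2 of 4 rises on both scales in a list of 12 metallothionein and iron genes, with corrected changes of 0.75 and 0.97 with GC content and deposited ones of 0.94 and 0.85 after quantile normalization, none of them called. Hmox1, heme oxygenase 1, rose from 10.8 and 10.4 to 43.7 and 42.9 FPKM (2.02 and 1.58) and was the 1 rise on both scales among 15 NRF2 target genes, of which Nqo1 was listed at 1.57 and 1.7 against 0.64 and 1.4 FPKM. Among 21 glycolysis genes 1 rose on both scales, Hk2, the inducible hexokinase, from 82.8 and 80.1 to 188 and 203 FPKM (1.26 and 2.09, with no call in TPM, at 0.69, or after quantile normalization, at 0.60). Of 23 cholesterol synthesis genes 9 fell on the deposited scale and 2 on both. Hmgcs1, an early enzyme of the path, fell from 62.2 and 60.9 to 18.3 and 18.0 FPKM (-1.76 and -1.27, and -0.90 with no call with GC content).

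More interferon-stimulated genes fell than rose on both scales. Of 23, 1 rose and 7 fell on both scales, 6 rose and 7 fell on the deposited scale, and the medians were -0.06 and -0.94. Ifit2, an antiviral RNA-binding protein, fell from 11.9 and 11.5 to 1.6 and 2.98 FPKM (-2.37 and -1.65), and Ifit1, its relative, from 20.3 and 20.4 to 6.02 and 6.87 FPKM (-1.64 and -1.39, and -0.98 with no call with GC content). Irf7, a transcription factor of the interferon response, was the rise, from 41.7 and 36.0 to 164 and 154 FPKM (2.03 and 1.70). Of 14 tested MHC and antigen presentation genes 4 rose and none fell on both scales, and 1 fell after the correction alone. Psmb10, an immunoproteasome subunit, rose from 28.6 and 25.4 to 152 and 166 FPKM (2.56 and 1.40), and Tap1 and Tapbp, of peptide loading, from 16.0 and 14.4 to 37.7 and 38.1 FPKM and from 59.4 and 60.6 to 165 and 168 FPKM, neither of which was called in TPM (0.75 and 0.90), nor Tapbp after quantile normalization (0.83). Of 14 complement genes 3 fell on both scales, among them C1s1, a protease of the classical path, from 4.12 and 2.99 to 0.94 and 0.68 FPKM.

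Most clustered protocadherins, adhesion proteins by which neurites recognize each other, fell. Of 52 tested 34 fell on both scales and 1 rose. Pcdhac2, the last variable exon of the alpha cluster, fell from 5.55 and 6.22 to 0.52 and 0.33 FPKM (-3.53, SE 0.24, adjusted p = 2.06e-06, and -2.31), and Pcdhgb1 from 3.35 and 3.14 to 0.12 and 0.38 FPKM. Pcdhgc4 rose from 9.8 and 9.32 to 70.1 and 66.7 FPKM (2.83, SE 0.27, adjusted p = 1.87e-05, and 3.26). The transcripts of a cluster share their constant exons, so the split of reads between its members is uncertain.

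Chromatin regulators, with long transcripts, fell on the deposited scale and mostly not after the correction. Of 45 genes 21 fell on the deposited scale and 3 on both. Kmt2a, a histone methyltransferase with a spliced length of 15157 nt, was listed at 36.6 and 33.2 against 8.88 and 9.26 FPKM, which was -1.93 deposited and 0.10 corrected. Kdm6a, a demethylase, fell on both scales from 19.3 and 18.3 to 1.57 and 2.29 FPKM (-3.24, SE 0.18, adjusted p = 6.19e-07, and -2.76). Kdm6a is X-linked, and the Y-linked genes Uty, its counterpart, and Ddx3y fell as well, Uty from 8.74 and 8.44 to 0.56 and 0.65 FPKM and Ddx3y from 12.7 and 10.9 to 3.13 and 3.36 FPKM, while Eif2s3y, also Y-linked and named after its values were seen, was listed at 50.8 and 53.8 against 50.1 and 62.5 FPKM. The corrected fall of Ddx3y (-1.18) was -0.24 with GC content.

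The remaining lists held a few large rises. Lgals1, a galectin that rises in injured axons and in leukocytes, went from 35.6 and 36.4 to 374 and 383 FPKM (3.39, SE 0.08, adjusted p = 1.45e-08, and 2.26), and Sprr1a, a regeneration-associated protein, from 0.73 and 0.55 to 4.07 and 6.93 FPKM (2.88 and 1.76). They were 2 of 3 rises on both scales among 16 axon injury genes, where Gap43, the growth cone protein, was listed at 66.6 and 64.4 against 67.7 and 64.5 FPKM. Plaur, the receptor of the protease urokinase, rose from 0.77 and 1.14 to 14.3 and 13.9 FPKM (3.77, SE 0.38, adjusted p = 2.7e-05, and 3.21), 1 of 4 rises on both scales among 19 matrix protease genes. Timp1, an inhibitor of such proteases that is named after its values were seen, was listed at 178 and 182 against 145 and 142 FPKM and was called as a fall after the correction alone (-0.32 and -1.40). Ccnd1, cyclin D1, rose from 13.2 and 13.3 to 39.4 and 41.5 FPKM (1.60 and 2.27). It was 1 of 3 rises among 21 cell cycle genes, and Ccnb1 and Aurkb, of mitosis, were listed at 0.04 FPKM or less in all 4 libraries. Of 21 autophagy genes 1 fell on both scales, Lamp2, a lysosomal membrane protein, from 65.6 and 64.2 to 25.1 and 23.9 FPKM (-1.41 and -1.03), whose corrected change was -0.35 with GC content and -0.53 with the union of exons.

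Among all coding genes called on both scales and present in both groups, 538 rises and 776 falls were eligible to be named by size. The 10 largest corrected rises included 5 named above, Retnlg, Cxcl2, Ccl2, Ccl4 and Ccl7, as well as Pcdhgc4. Aldh1a3, a retinoic acid-producing enzyme at chr7:66390890-66427517 on the minus strand, rose from 1.43 and 2.01 to 17.9 and 18.1 FPKM (3.33, SE 0.24, adjusted p = 3.26e-06, and 3.51 corrected). Tuba1c, an alpha-tubulin at chr15:99029891-99038110 on the plus strand, rose from 9.75 and 11.6 to 111 and 104 FPKM (3.32 and 3.14), in a family with near-identical coding sequence. Rps12-ps3 and Gm42715, a ribosomal pseudogene and a predicted gene, were the others, listed at 6.12 and 0 against 22.2 and 34.8 FPKM and at 1.85 and 9.2 against 17.9 and 19.6 FPKM. Without PBS replicate 2 the corrected change of Rps12-ps3 was 1.09 and without PBS replicate 1 the deposited change of Gm42715 was 1.02, neither called. The corrected call of Rps12-ps3 also ended with GC content (3.91, adjusted p = 0.059) and the deposited call of Gm42715 in TPM (1.59, adjusted p = 0.0642). Both of these calls also ended without either NMDA replicate and with the spread taken from the wild-type libraries alone. That of Rps12-ps3 ended as well with the replicate number as a block.

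The 10 largest falls included Rgs9. Lactbl1, a lactamase-like protein at chr4:136622621-136639110 on the plus strand, fell from 40.2 and 35.9 to 2.12 and 4.4 FPKM (-3.59 and -3.19). Septin2, a filament-forming GTPase, has 2 rows in the table: the gene at chr1:93478964-93510260 fell from 16.8 and 13.7 to 2.21 and 1.61 FPKM, and the other was listed at 24.9 and 25.5 against 22.7 and 24.6 FPKM, so the split of reads between them is uncertain. Snurf, on an imprinted transcript shared with Snrpn, fell from 164 and 185 to 23.8 and 16.4 FPKM. Also among them were 3 zinc finger genes of a repeated family on chromosome 2 (Gm14399, Zfp973 and Zfp967), the predicted gene Gm49601, and Rsc1a1, which lies within another gene, with PBS levels between 6.51 and 12.9 FPKM and NMDA levels between 0.46 and 2.44 FPKM. The deposited call of Gm14399 ended without NMDA replicate 1 (-1.93, adjusted p = 0.0904) and without PBS replicate 2 (-2.68, adjusted p = 0.0588).

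A few genes went against the length trend. Of coding genes over 4 kb, 14 eligible ones rose. Itga5, the fibronectin receptor subunit, rose from 2.02 and 1.73 to 7.76 and 6.46 FPKM (1.87 and 2.71), Parp4, of the vault particle, from 5.75 and 5.39 to 16.4 and 17.1 FPKM (1.57, SE 0.14, adjusted p = 1.12e-05, and 2.54), and Ccdc85b from 8.53 and 7.41 to 24.2 and 21.3 FPKM (1.499 and 2.49, and 0.93 with no call in TPM). Vwf, the clotting factor of endothelium, rose from 1.29 and 1.51 to 6.83 and 3.49 FPKM (1.74 and 2.71), with deposited adjusted p values of 0.0935 without NMDA replicate 1, 0.0654 without PBS replicate 1 and 0.0554 in TPM (1.20). Of coding genes under 1 kb, 13 eligible ones fell. Besides Snurf, Gm49601 and 2 mitochondrial genes these included Arl10, a small GTPase, from 7.64 and 6.39 to 1.86 and 1.48 FPKM (-2.01 and -3.03).

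Pax6 and the genes whose promoters the study examined by PCR of chromatin precipitates had the following levels. Pax6, the developmental transcription factor at the center of the study, was listed at 173 and 177 FPKM after PBS and 55.4 and 53.8 FPKM after NMDA (-1.68, SE 0.07, adjusted p = 1.21e-07, and -1.95 corrected), with -0.64 and no call when the union of its exons stood for its length. Pdcd2, a ribosome-assembly factor, was listed at 14.1 and 14.4 against 49.4 and 51.99 FPKM (1.83 and 0.73), and Gadd45a, a stress sensor, at 24.9 and 25.8 against 69.3 and 47.8 FPKM (1.18, and 0.32 corrected with an adjusted p of 0.103). Both rose on the deposited scale, as did Bax and Bad, and none of these 4 was called after the correction. The deposited change of Gadd45a was 0.61 in TPM, 0.89 after quantile normalization and 0.91 without NMDA replicate 1, and that of Bad 0.60 in TPM and 0.95 after quantile normalization, none of them called. Ing4, a chromatin reader, was listed at 33.9 and 34.3 against 61.6 and 58.7 FPKM (0.82 and 0.33, not called), and Dedd2, a death effector domain protein, at 14.2 and 15.1 against 28.3 and 20.7 FPKM (0.72, and 1.01 corrected, which was 0.80 without NMDA replicate 1 and 0.65 with GC content, neither called).

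The wild-type response was set against those of the other genotypes after the length correction. The responses of wild-type and shPax6 retinas differed in 3018 genes (18.3% of those tested) and those of wild-type and JNK3 knockout retinas in 2761 (16.8%). The 706 genes that rose on both scales in wild type had a median corrected change of 1.44 there, 0.32 in shPax6 and 0.05 in JNK3 knockout, and the rise was larger in wild type for 320 and 455 of them by the test of the difference. The 1480 genes that fell had medians of -1.69, -0.30 and 0.09, with larger falls in wild type for 811 and 1031. These genes were chosen by their wild-type change, and the difference reuses the same wild-type libraries, so that larger medians in wild type and the counts of larger changes follow in part from the choice. Genotype cannot be told apart from the virus and the mouse line. The wild-type NMDA pair also stood apart from all other libraries in the mean transcript length of its RNA pool. The part of this in the differences was not tested. The shPax6 NMDA libraries also held RNA that the wild-type libraries lacked: 102 tested immunoglobulin genes, found after the values were seen, summed to 3176 and 3106 FPKM there and to 0.71 to 9.81 FPKM in the other 10 libraries, the wild-type NMDA pair being at 1.95 and 3.09 FPKM. In the shPax6 NMDA libraries 90 and 96 of these genes exceeded 1 FPKM, against at most 5 in any other library. Most of them thus passed the filter through that group, so the contrast follows in part from the filter. The part of these genes in the difference was not tested.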

How the data were processed

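RNA-seq of retinas was measured in 12 libraries, 2 for each of 6 groups, of which 4 are described. Per the labels and the study's methods, the authors made TruSeq libraries from polyA RNA, aligned paired reads to GRCm38.p6 with STAR 2.7.1a and estimated abundance with RSEM 1.3.3. The deposited values are FPKM per gene and per transcript, estimated by the authors with RSEM. edgeR 3.36.0 and R 4.1.0 are also named in the submitters' processing notes. The strand setting is not given in the sources used here.

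FPKM are not counts, so log2(FPKM + 0.1) was tested with limma 3.58.1 (empirical Bayes with a trend, 6-group model, 6 residual degrees of freedom, R 4.3.3) and p-values were adjusted over all genes tested by the Benjamini-Hochberg method. Spliced length was the mean length of a gene's GENCODE M21 transcripts weighted by their mean FPKM, and 55227 of 55487 genes matched that annotation. For the length-corrected scale, a lowess curve (span 0.3) of each library's deviation from the gene mean on log2 length was subtracted. Called genes had an adjusted p under 0.05 and a log2 fold change beyond 1. The 2 most abundant transcripts of a gene were compared by the log2 ratio of longer to shorter in the same model. Depth was estimated from the spacing of low FPKM values, of which 78.1 to 84.8% lay within 0.15 of whole fragments in the 4 libraries. Promoter sequences came from RefSeq (GRCm38.p6). The code was tested on simulated data.

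Members and gene lists were chosen with earlier results of these data known. The genes named were the 10 largest length-corrected rises and falls among coding genes called on both scales, above 1 FPKM in both groups and without overlap, the 5 largest rises over 4 kb and falls under 1 kb, up to 3 rises and falls on both scales plus the first 2 entries of each list, Pax6, Mapk10 and the genes of the study's primer list, and the 5 largest changes in transcript ratio. Other names are marked as chosen after their values were seen. Some genes that the rule names are not reported here. Libraries with the same number did not deviate together (r = -0.01 over 16471 genes), so the numbers were not taken as pairs.

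Alternatives changed the pseudocount, the filter, the source of the spread, the scaling (TPM, quantile), the length measure and the curve, and left out each library.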

Additional observations from a re-analysis of the deposited data

Results flagged for a closer look

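The length-corrected NMDA response of wild-type retinas differed from that of shPax6 retinas in 3018 genes and from that of JNK3 knockout retinas in 2761 genes, by the limma interaction test with Benjamini-Hochberg adjustment (adjusted p under 0.05 and a difference beyond 1). Genotype cannot be told apart from the virus and the mouse line, and every response rests on 2 libraries per group. The wild-type NMDA pair also stood apart in the mean transcript length of its RNA pool, 1241 and 1219 nt against 1733 to 1848 nt in the other libraries. The part of this in the differences was not tested. Differences are given as the wild-type log2 response minus that of the other genotype. The genes below were named mostly for their large wild-type changes, and the differences reuse the same wild-type libraries, so a larger wild-type response is favored by the choice. No group had enough libraries to test for a library far from the others.

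Among genes that rose, the response was higher in wild type than in JNK3 knockout for Retnlg (6.27), Cxcl2 (5.68), Gm42715 (4.34), Pcdhgc4 (4.27), Ccl2 (3.06), Ccl7 (2.16), Aldh1a3 (1.48) and Dedd2 (1.13). Part of some differences was a change below 0 in the knockout. The corrected changes there were -1.825 for Retnlg, -1.746 for Cxcl2, -1.333 for Gm42715, -1.016 for Pcdhgc4 and -0.117 for Dedd2. They were 0.675 for Ccl2, 1.011 for Ccl7 and 2.036 for Aldh1a3. Against shPax6 the response was higher in wild type for Pcdhgc4 (4.37), whose corrected change in shPax6 was -1.116. Cxcl2 went the other way there: its response was smaller in wild type than in shPax6, with a difference of -3.58.

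Among genes that fell, the differences against shPax6 and JNK3 knockout were, in that order, -4.49 and -3.68 for Septin2, -3.96 and -4.08 for Gm14399, -3.46 and -3.54 for Zfp967, -3.27 and -4.06 for Rgs9, and -3.24 and -3.53 for Lactbl1. They were -3.19 and -3.997 for Zfp973, -3.07 and -3.95 for Gm49601, -3.06 and -3.29 for Rsc1a1, -2.23 and -2.80 for Snurf, -1.52 and -2.55 for Mapk10, and -1.18 and -1.51 for Pax6. Mapk10 and Pax6 are the genes disrupted or targeted in the genotypes compared.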

How the results depend on the processing

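In TPM 910 genes rose and 5888 fell, in place of 2347 and 3441 on deposited FPKM. The transcript table gave 14881 calls (4450 up, 10431 down). After the length correction, 2144 genes rose without a filter on low values and 1889 with the union of exons as length, in place of 1108. The differences from shPax6 and JNK3 knockout were called in 5264 and 5865 genes on deposited FPKM. Leaving out 1 wild-type library gave 5182 to 5476 calls on the deposited scale, 2443 to 2851 after the correction and 1695 to 2502 for the transcript ratio (901 to 1301 lower, 794 to 1201 higher), the lowest of each transcript range without PBS replicate 1. The other counts stayed within 1.5 times the reported ones. In the alternative fits of genes no called gene was called in the opposite direction, and no called named gene changed sign. For transcripts and their ratios this was not checked. A model with the replicate number as a block, whose numbers share only a name, gave 5760 calls (2337 up, 3423 down), 2938 after the correction (1096 up, 1842 down) and 2880 transcript pairs, and the differences from shPax6 and JNK3 knockout were called in 2967 and 2718 genes. Of the named genes, 142 of 197 deposited and 116 of 181 corrected calls held in every alternative. The median of 41 of 58 lists kept its sign in every alternative on the deposited scale and that of 49 of 58 after the correction. At 19.5 to 21.5 fragments per FPKM at 1 kb, values below 1 FPKM rest on few fragments.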

Other observations

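Vascular and astrocyte lists gave few calls. Of 14 endothelial genes 1, Vwf, rose on both scales, and the list summed to 108 and 103 FPKM after PBS and 128 and 123 FPKM after NMDA, with a deposited median of 0.30 that was -0.24 in TPM. Pecam1 and Cdh5, adhesion proteins of endothelial junctions, were listed at 3.12 and 2.79 against 4.25 and 3.67 FPKM and at 1.43 and 1.17 against 0.51 and 0.85 FPKM, and neither was called on the deposited scale. The 10 listed pericyte and smooth muscle genes, 6 of them tested, summed to 18.0 and 18.7 against 19.5 and 18.6 FPKM. Tagln, a protein of smooth muscle, was the rise, from 1.46 and 1.3 to 6.27 and 4.15 FPKM, and its corrected call ended without PBS replicate 1 (1.33, adjusted p = 0.0763), PBS replicate 2 (1.14, adjusted p = 0.115) or NMDA replicate 1 (0.95, adjusted p = 0.155). Of 3 tested astrocyte genes none was called on both scales, with medians of -0.52 and -0.42. Pdgfra, a growth factor receptor of retinal astrocytes, was listed at 1.57 and 1.36 against 0.16 and 0.35 FPKM and fell on the deposited scale alone (-2.19, and -0.99 corrected). Lymphocyte genes summed to between 0.84 and 2.64 FPKM in the 4 libraries, and of the surface epithelium list 1 of 8 genes was tested, at 0.35 FPKM or less.

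Of 7 genes on the survival side of the BCL2 family 1, Bcl2a1b, rose on both scales (2.37 and 1.25) and none fell, with medians of 0.59 on both. Mcl1, a short-lived survival protein, was listed at 40.2 and 40.9 against 62.7 and 56.4 FPKM and rose after the correction alone (0.55 and 1.13). Bcl2 was listed at 2.39 and 2 against 1.25 and 0.92 FPKM, with both NMDA values lower and no call (-0.96 and 0.43), and Bcl2l1, which encodes BCL-XL, at 43.1 and 39.9 against 62.0 and 62.5 FPKM, and Bcl2l1 was called on neither scale (0.59 on both). The list of 7 summed to 153 FPKM in both PBS libraries and to 206 and 198 FPKM after NMDA.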
